A study of Mus musculus with 6 samples.

Results

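The genes described here are a set of 33 genes of the antioxidant defence that the transcription factor NRF2 (gene Nfe2l2) governs: its regulators, the enzymes that make and use glutathione, the thioredoxin system, the suppliers of NADPH, the iron and haem genes, the superoxide and peroxide enzymes, and 2 further NRF2 targets. A gene was represented by a probe set annotated with exactly 1 symbol, that of the gene, and by the brightest such probe set over the 6 arrays where there were several. This gave a value for 28 of the 33 genes, out of 18193 genes with such a probe set on the array. Esd, Prdx1 and Ftl1 were only on probe sets annotated with several symbols, Prdx6 and G6pdx were on none, and these 5 genes were not analysed here. All 28 lay above the median of their array on at least 3 of the 6 arrays and so entered the test, as did 10363 of the 18193 genes.

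The cells were mouse bone marrow macrophages on Affymetrix Mouse Genome 430 2.0 arrays, 3 from cells with the mutant receptor and 3 from cells with the wild-type one. The question was which genes depend on the IVVY motif of RANK, the receptor that turns macrophages into osteoclasts. The mutant group were TNFR1-/-R2-/- macrophages of the strain c57BL/6 that carried, from a retrovirus, a chimeric receptor with the outer part of mouse TNFR1 and the transmembrane and inner part of mouse RANK, with inactivating mutations in the IVVY motif. The wild-type group were the same TNFR1-/-R2-/- macrophages with the same chimera and an intact motif. Both groups therefore lacked their own TNF receptors, went through 3 days of puromycin (2 ug/ml), and were kept for 24 hours in 44 ng/ml M-CSF with 10 ng/ml TNF, so that TNF acted through the inner part of RANK. The RNA of 6 dishes was pooled for an array, and each group was prepared in 3 independent assays that share a number between the groups. Whether separate mice were used for each assay is not in the labels, so p-values measure the spread between these preparations. In bulk RNA of this kind, fewer cells of a type and less RNA per cell cannot be told apart.

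In resting cells KEAP1 holds NRF2 and hands it to a ubiquitin ligase; oxidants and electrophiles modify KEAP1, NRF2 enters the nucleus with a small MAF partner, and genes with an antioxidant response element are transcribed. Their products make glutathione, keep thioredoxin and peroxiredoxins reduced, supply NADPH and detoxify quinones and haem. In macrophages, reactive oxygen species act downstream of RANK, and loss of Nfe2l2 in mice is known to favour osteoclast formation.

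The mutant array of assay 2 stood apart from the other 5 in its control probe sets. Its control probe set for the 3′ end of 18S ribosomal RNA read 4167, against 130 and 82.2 on the other mutant arrays and at most 123 on the wild-type arrays. Its ratio of 5′ to 3′ signal, a usual check of RNA integrity, was 0.375 for beta-actin and 0.778 for Gapdh, below the ranges of the other 5 arrays, 0.553 to 0.668 and 0.964 to 1.34. Results are given for assays 1 and 3 alone as well, a choice made after the data were seen. Sums of macrophage markers were alike in both groups: all 11 measured were well expressed, led by Lyz2 and C1qb, and summed to 198158 to 224494 on mutant and 201623 to 214197 on wild-type arrays. The brightest genes weigh most in such a sum. Of the 11, 0 were lower and 0 higher in every assay, but Fcgr1, named after its values were seen, differed by -0.58, 1.57 and -0.58. Sums of osteoclast markers were not alike: the 11 genes, led by Acp5 and Mmp9, summed to 1903 to 2798 on mutant and 9456 to 28312.5 on wild-type arrays. Of the 9 of these that were tested, 8 were lower in mutant cells in every assay (12.0% of all genes). Stromal markers, led by Acta2 and Fn1, summed to 776, 920.0 and 9375 on mutant arrays 1 to 3 and to 439, 605 and 6803 on wild-type arrays 1 to 3, so both arrays of assay 3 were high. Of the 8 stromal genes tested, all 8 were higher in mutant cells on the mean and 6 in every assay (14.5% of all genes), Fn1 by 1.22, 1.03 and 0.68. Of these 6, Fn1 alone read above 16 on every array. The others, Col1a2, Col3a1, Sparc, Postn and Col5a2, were named after their values were seen. They read under 16 on both arrays of assay 1, where intensities have no reliable order. Col3a1 read 7.18 on mutant array 1 and 7.16 on wild-type array 1. Dcn, a listed stromal gene that the filter left out, was named after its values were seen and went the other way in assay 3. It read 4.61 on mutant array 3 and 62.9 on wild-type array 3. Of 8 neutrophil genes only S100a8 and Mmp8 were above 16 on any array, and the list summed to 483 to 1655 on mutant and 672 to 2482 on wild-type arrays. Erythroid, B-cell and mast-cell markers were at or under 16 on every array, and of the T and NK cell markers only Cd4 was above it, at up to 29.2 on mutant and 26.6 on wild-type arrays. The part of these marker genes and of the RNA quality of mutant array 2 in the results below was not tested.

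**Figure D1:**
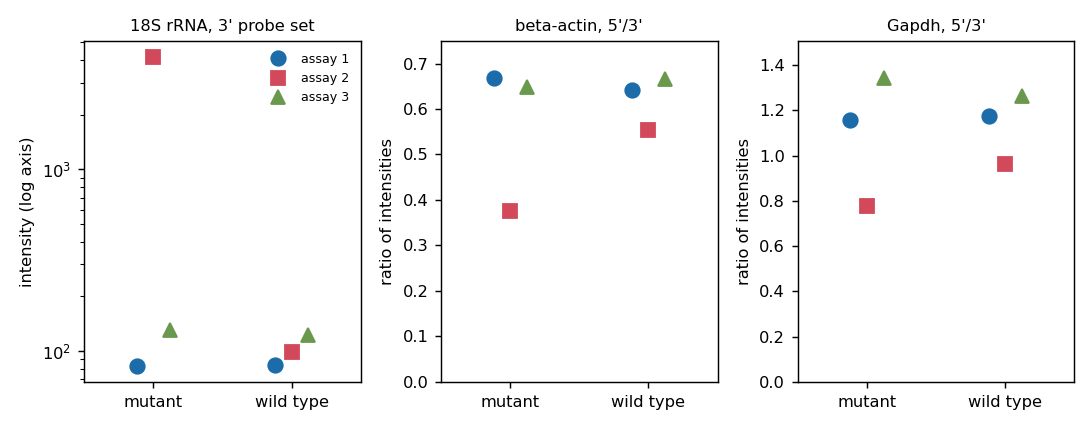
Control probe sets on the 6 arrays, mutant left and wild type right, with a symbol per assay: intensity of the 18S ribosomal RNA 3′ probe set on a log axis, and the ratio of 5′ to 3′ intensity for beta-actin and Gapdh. The mutant array of assay 2 is the highest for 18S (4167) and the lowest for both ratios (0.375 and 0.778).

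The response element that NRF2 binds has a short core, searched here as TGACNNNGC. A second form, TGAGNNNGC, was searched as well, and no binding by NRF2 was measured for either form. Both strands were searched in RefSeq promoter windows of assembly GRCm38.p6, from 250 bases before to 50 after each gene start. The second form was added after sequences had been read, and the forms share no match. Of all 32851 windows, 27.8% held at least 1 match, 12.4% for the first form and 17.6% for the second. Windows were matched by symbol for 24 of the 28 genes, and 12 of the 24 held a match in at least 1 window (50%), against 30.8% of all 27025 genes with a window; counted by window, 35.3% of the windows of these genes held a match. The 3 promoters printed here were picked because their genes were lower in mutant cells in every assay and carry a match: the 250 bases before the start of Srxn1 (chr2:152105274-152105523, plus strand), Gclm (chr3:122245307-122245556, plus strand) and Slc7a11 (chr3:50443614-50443863, minus strand), 5′ to 3′ along the gene, with each match in capitals.
Srxn1: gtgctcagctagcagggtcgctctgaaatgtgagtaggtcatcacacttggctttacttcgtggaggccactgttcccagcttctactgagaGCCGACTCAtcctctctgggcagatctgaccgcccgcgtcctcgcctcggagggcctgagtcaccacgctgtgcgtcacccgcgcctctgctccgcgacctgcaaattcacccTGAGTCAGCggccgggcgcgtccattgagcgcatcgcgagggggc
Gclm: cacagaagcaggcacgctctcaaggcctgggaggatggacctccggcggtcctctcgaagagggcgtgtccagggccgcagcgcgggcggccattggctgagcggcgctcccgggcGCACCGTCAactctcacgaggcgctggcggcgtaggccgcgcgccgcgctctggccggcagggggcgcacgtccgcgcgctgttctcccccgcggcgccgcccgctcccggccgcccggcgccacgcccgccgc
Slc7a11: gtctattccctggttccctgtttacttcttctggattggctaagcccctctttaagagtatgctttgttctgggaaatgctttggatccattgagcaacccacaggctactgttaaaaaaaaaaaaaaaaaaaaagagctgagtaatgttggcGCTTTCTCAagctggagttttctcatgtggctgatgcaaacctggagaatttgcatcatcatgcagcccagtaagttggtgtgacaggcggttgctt
Srxn1 held 2 matches before its start, both of the added second form, and 1 after it, of the first form. Gclm held 1 of the first form and Slc7a11 held 1 of the second, each read on the opposite strand. Of the 10 genes with a window that were lower in mutant cells in every assay, 5 held a match, and of the 14 others, 7 did, so the share was 50% in both. The windows of Nqo1 and Gss, described below, held neither form, and sequence more than 250 bases before a start was not searched for any gene.

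No gene of the list passed the test. By limma without a block, 0 of the 22497 probe sets tested (0%) had a Benjamini-Hochberg adjusted p under 0.05, the smallest adjusted p and that of every gene of the list being 0.99998; 198 probe sets had an unadjusted p under 0.05. With the assay as a block, 0 probe sets (0%) and 0 genes of the list passed, with a smallest adjusted p of 0.0792 over all probe sets by limma and 1189 at an unadjusted p under 0.05. Without the block, 3 of the 28 genes had an unadjusted p under 0.05, all lower in mutant cells: Gss, Srxn1 and Slc7a11 held ranks 13, 26 and 102 by p among 10363 genes in this fit, which leaves the pairing out. With the block, 6 of the 28 had an unadjusted p under 0.05, again all lower: Slc7a11, Nqo1, Gss, Srxn1, Gclc and Txnrd1. The differences below are therefore descriptions of 3 pairs, given as mutant minus wild type on the scale log2(intensity + 16), which understates the difference of dim genes. Their standard errors come from the fit without the block. They hold the differences between assays and do not measure the spread of the pair differences. For Gclc the standard error was 0.50 without the block and 0.083 with it, and for Gss 0.16 and 0.17.

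On the mean of the 3 assays, 22 of the 28 genes were lower and 6 higher in mutant cells. Of all 10363 genes tested, 4852 were lower and 5511 higher. The mutant array was below its same-numbered wild-type array in all 3 assays for 13 of the 28, where 12.0% of all genes tested were, and above it in all 3 for 0, where 14.5% of all genes were. The 13 were Keap1, Sqstm1, Slc7a11, Gclc, Gclm, Gss, Gsr, Abcc1, Txn1, Txnrd1, Srxn1, Pgd and Nqo1. In assays 1 and 3 alone, these same 13 were lower in both (23.0% of all genes) and 5 were higher in both (22.6% of all genes). The groups did not overlap for 2 of the 28, Gss and Srxn1, both lower in mutant cells (1.95% of all genes), and for 0 with mutant cells higher (1.36% of all genes). The median difference over the 28 genes was -0.14 and that over all genes tested was 0.01. Within the assays the 28 genes had medians of -0.06, -0.36 and -0.09, and the median of their means over assays 1 and 3 was -0.06. The sizes were thus mostly small outside assay 2, the assay with the array that stood apart. A difference of over 0.3 to the lower side, a size chosen after the values were seen, was found for 4 of the 28 genes in assay 1 (9.85% of all genes), 17 in assay 2 (12.9% of all genes) and 7 in assay 3 (11.7% of all genes).

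**Figure D2:**
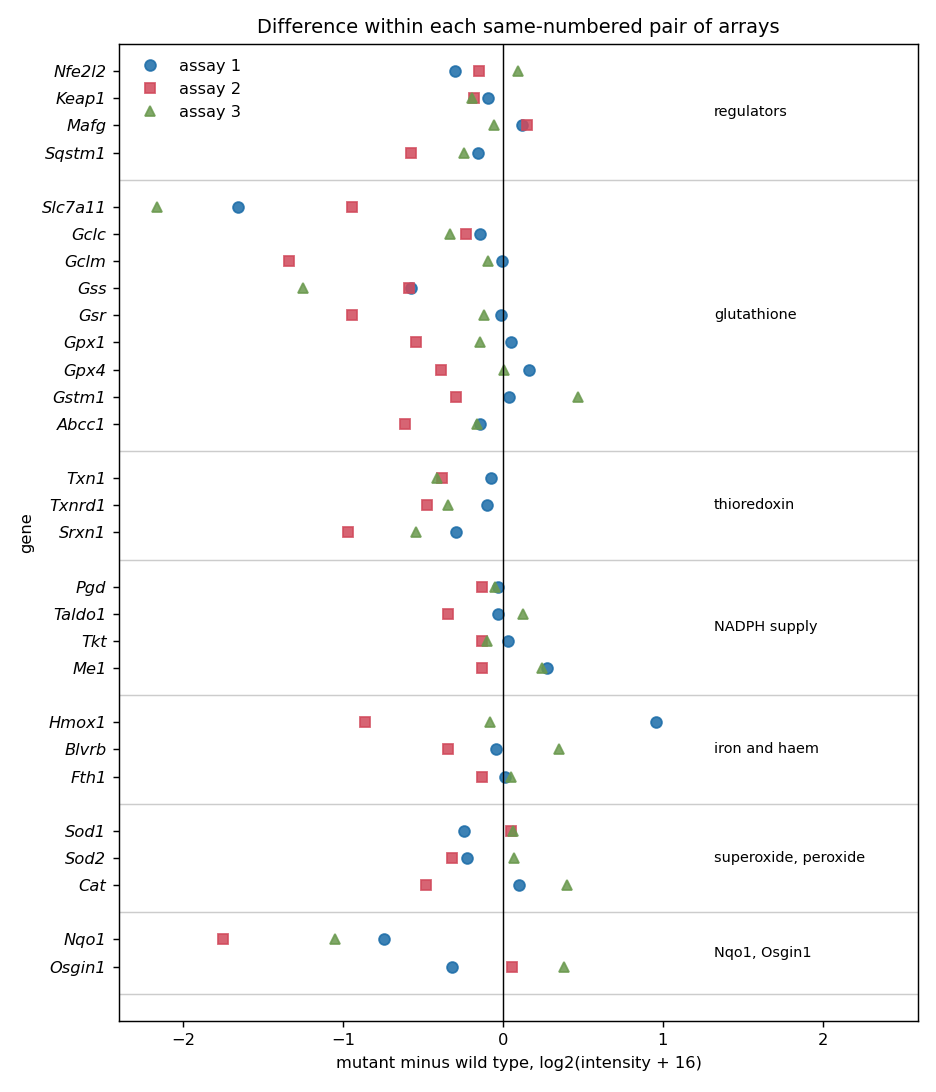
Mutant minus wild type on the log2(intensity + 16) scale for each of the 28 genes, grouped by role, with a symbol per assay. The largest differences to the lower side belong to Slc7a11 (-1.66, -0.94 and -2.16 in assays 1 to 3) and Nqo1 (-0.74, -1.75 and -1.05), and the assay 2 points lie left of 0 for 25 of the 28 genes.

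Among the regulators, Nfe2l2 itself read 6888, 6140.2 and 8625 on mutant arrays 1 to 3 and 8467, 6803 and 8078 on wild-type arrays 1 to 3. Its groups overlapped and its pairs had no common direction, with a mean difference of -0.12 ± 0.17 (SE, n = 3 each). A much dimmer Nfe2l2 probe set went the other way and was higher in mutant cells in every assay, by 0.08, 0.09 and 0.14. Keap1, the sensor that retains NRF2, read 329, 375 and 385 on mutant and 352, 427 and 442 on wild-type arrays. It was lower in mutant cells in each assay, but by no more than 0.19, and its mean difference was -0.15 ± 0.13. A second Keap1 probe set differed by -0.04, -1.42 and 0.09 in assays 1 to 3, so the probe sets disagree in size in assay 2 and in sign in assay 3. Sqstm1, the autophagy receptor p62 that binds KEAP1 and is itself an NRF2 target, read 5205, 5409.7 and 6513 on mutant and 5794, 8063 and 7699.6 on wild-type arrays. It was lower in mutant cells in each assay, with differences of -0.15, -0.57 and -0.24, with a mean difference of -0.32 ± 0.17. Mafg, a small MAF partner of NRF2, differed by 0.12, 0.15 and -0.05 and averaged 658 ± 239 in mutant and 617 ± 196 in wild-type cells (SD, n = 3 each). A second Mafg probe set was higher in mutant cells in every assay, by 0.23, 0.48 and 0.16.

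Glutathione is made from glutamate, cysteine and glycine. Slc7a11 encodes the transporter subunit xCT, which brings in cystine. It read 33.7, 7.88 and 23.5 on mutant arrays 1 to 3 and 141, 29.9 and 161 on wild-type arrays 1 to 3. Each mutant array was below its partner, though mutant array 1 read above wild-type array 2, and mutant array 2 lay under 16, in the range where intensities have no reliable order. The mean difference was -1.59 ± 0.61, or 3.00-fold lower, and -1.91 in assays 1 and 3 alone. As the gene is dim, this size depends on the constant added before the logarithm, and was -2.18 with 1 and -0.94 with 64. A second Slc7a11 probe set was also lower in every assay, with differences of -0.97, -0.24 and -1.45. Slc3a2, the heavy chain that pairs with xCT, is on the wider list given below, was named after its values were seen, and differed by 0.11, 0.26 and -0.08.

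Gss encodes glutathione synthetase, the last enzyme of glutathione synthesis. Its intensities were 119, 119.8 and 88.0 on mutant and 184, 188 and 231 on wild-type arrays. The groups did not overlap, and the lowest wild-type array was above the highest mutant array. The mean difference was -0.80 ± 0.16, or 1.74-fold lower, with -0.57, -0.59 and -1.25 in assays 1 to 3 and -0.91 in assays 1 and 3 alone. No permutation p is given for single genes: 3 against 3 arrays cannot go below an exact two-sided p of 0.1, which groups without overlap reach by construction, and 3 pairs cannot go below 0.25. A second Gss probe set differed by -0.40, -0.19 and -0.85, with groups that overlapped.

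The enzyme of the first step of synthesis, glutamate-cysteine ligase, has a catalytic subunit, Gclc, and a modifier subunit, Gclm. Gclc read 1497, 619 and 587 on mutant and 1651, 730.0 and 743 on wild-type arrays. It was lower in mutant cells, with differences of -0.14, -0.23 and -0.33, differences smaller than the gap between assay 1 and the other assays in either group. Its second probe set read higher on the mutant array in assay 2, by 0.39. Gclm read 4604, 1813 and 1519 on mutant and 4631, 4603 and 1621 on wild-type arrays. Nearly all of its mean difference of -0.48 ± 0.61 came from assay 2, with -0.01, -1.34 and -0.09 in the assays and -0.05 in assays 1 and 3 alone. A second Gclm probe set differed by 0.32, -0.89 and 0.03.

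Gsr, glutathione reductase, which returns oxidised glutathione to its reduced form with NADPH, followed the same pattern. It read 399, 259.5 and 213 on mutant and 402, 515 and 232 on wild-type arrays, a difference of -0.01, -0.95 and -0.12. Its second probe set differed by 0.12, -1.38 and -0.30 and did not keep the direction in assay 1. Abcc1, an exporter of glutathione conjugates, read 2883, 3029 and 2234 on mutant and 3190.1, 4643 and 2502 on wild-type arrays. It was lower, with differences of -0.15, -0.61 and -0.16, again with the widest gap in assay 2. The glutathione peroxidases did not share a direction outside assay 2: Gpx1, which reduces hydrogen peroxide, differed by 0.05, -0.54 and -0.15. Gpx4, which reduces lipid hydroperoxides and guards against ferroptosis, differed by 0.17, -0.39 and 0.01. Gstm1, a glutathione transferase, averaged 1852 ± 137 in mutant and 1781 ± 360.1 in wild-type cells and differed by 0.04, -0.29 and 0.47; its probe set belongs to a family of close paralogs and may read several of them.

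**Figure D3:**
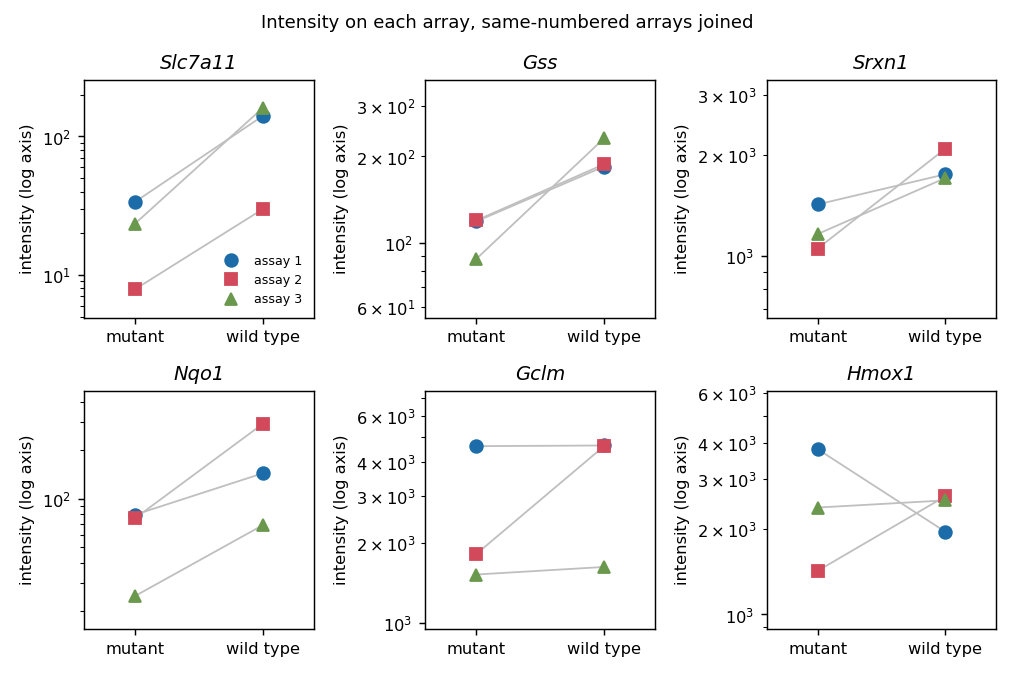
Intensity (log axis) of Slc7a11, Gss, Srxn1, Nqo1, Gclm and Hmox1 on each array, mutant left and wild type right, with lines joining same-numbered arrays and a symbol per assay. Gss and Srxn1 show no overlap between groups, Gclm is apart only in assay 2 (1813 against 4603), and Hmox1 is higher on mutant array 1 (3809 against 1952) and lower on mutant array 2 (1424 against 2601).

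The 3 measured genes of the thioredoxin system were lower in mutant cells in every assay (12.0% of all genes). Srxn1 encodes sulfiredoxin, which repairs overoxidised peroxiredoxins. It read 1425, 1054 and 1164 on mutant and 1749.5, 2082 and 1706 on wild-type arrays. The groups did not overlap, with differences of -0.29, -0.97 and -0.54, a mean of -0.60 ± 0.16 (1.52-fold lower) and -0.42 in assays 1 and 3 alone. Of the 3 other Srxn1 probe sets, one stayed at or under 10.6 on every array, and the other two differed by -0.41, -1.87 and -0.91 in assays 1 to 3 and by -0.71 ± 0.30 on the mean, both lower in mutant cells in every assay. Srxn1 is the gene above whose promoter held most matches to the forms searched, those before its start being of the form added later.

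Txn1, thioredoxin itself, read 16900.5, 13085 and 9889.9 on mutant and 17776, 17065 and 13149 on wild-type arrays. It was lower, with differences of -0.07, -0.38 and -0.41, and its groups overlapped. Txnrd1, the NADPH-dependent reductase of thioredoxin, read 3625, 2465 and 1573 on mutant and 3876, 3435 and 2001 on wild-type arrays. It was lower, with differences of -0.10, -0.48 and -0.34, while the gap between assays 1 and 3 was 2.10-fold. A dimmer Txnrd1 probe set differed by 0.45, -1.56 and -0.35 and did not keep the direction in assay 1.

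Of the 4 measured suppliers of NADPH, 1 was lower in mutant cells in every assay (12.0% of all genes). This was Pgd, of the oxidative pentose phosphate pathway, which read 14523, 14274 and 11434 on mutant and 14806, 15629 and 11827 on wild-type arrays. Each mutant array was below its partner, but by at most 0.13. Another Pgd probe set was also lower in every assay, but the remaining ones read higher on the mutant array in assay 3, by 0.02 and 0.07. Tkt and Taldo1, transketolase and transaldolase of the non-oxidative branch, differed by 0.03, -0.13 and -0.10 and by -0.03, -0.34 and 0.13. Me1, the cytosolic malic enzyme, read 271, 141 and 56.8 on mutant and 221, 156 and 45.3 on wild-type arrays. It differed by 0.28, -0.13 and 0.25, and its assays lay further apart than its groups: the mean of both arrays was 246 in assay 1, 148 in assay 2 and 51.1 in assay 3.

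Of the iron and haem genes, Hmox1, the inducible haem oxygenase and a target of both NRF2 and BACH1, had the widest split between assays. It read 3809, 1424 and 2375 on mutant and 1952, 2601 and 2517 on wild-type arrays, which is 0.96 in assay 1, -0.86 in assay 2 and -0.08 in assay 3. The mean difference was 0.00 ± 0.38, and without assay 2 it was 0.44. Blvrb, biliverdin reductase B, averaged 7725 ± 919 in mutant and 8065 ± 2692 in wild-type cells and differed by -0.04, -0.34 and 0.35. Fth1, the ferritin heavy chain that stores iron, had the smallest standard error of the 28 genes, at 50332 ± 1055 in mutant and 51136 ± 3124 in wild-type cells, with a difference of -0.02 ± 0.09.

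Among the superoxide and peroxide enzymes, none had a common direction in the 3 assays by its brightest probe set. Sod1, the cytosolic superoxide dismutase, differed by -0.24, 0.05 and 0.06, and Sod2, the mitochondrial one, by -0.22, -0.32 and 0.07. Dimmer Sod2 probe sets were lower in mutant cells in every assay. One differed by -0.16, -0.58 and -0.03, and another by -0.05, -0.37 and -0.29 with groups that did not overlap. Catalase (Cat) read 10984, 9370.5 and 8837 on mutant and 10242, 13069 and 6695 on wild-type arrays. The wild-type arrays of assays 2 and 3 were its highest and lowest, and the mean difference was 0.01 ± 0.27.

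Nqo1, the quinone reductase often used as a readout of NRF2, read 79.7, 75.7 and 24.9 on mutant and 144, 292 and 68.6 on wild-type arrays. Every mutant array was below its partner, but the groups overlapped, since wild-type array 3 read below mutant arrays 1 and 2. The differences were -0.74, -1.75 and -1.05, with a mean of -1.18 ± 0.58, or 2.27-fold lower, and -0.90 in assays 1 and 3 alone. It held rank 240 of 10363 genes by p in the fit without the block. Osgin1, an oxidative stress-induced growth inhibitor, differed by -0.32, 0.06 and 0.38 and had no common direction.

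Pooled over the 28 genes, levels differed more between assays than between groups. For the 28 genes together, the assay accounted for 63.6% and the group for 25.5% of the variance over the 6 arrays, and for all genes tested these shares were 81.1% and 8.76%. This did not hold for each gene. Gss averaged 152, 154 and 160 in assays 1 to 3, but 109 in mutant and 201 in wild-type cells. Srxn1 averaged 1587, 1568 and 1435 in assays 1 to 3, but 1214 in mutant and 1846 in wild-type cells. Both arrays of assay 3 were the lowest of the 6 for 13 of the 28 genes (46.4%), against 33.8% of all genes, and both arrays of assay 1 were the highest for 8 (28.6%), against 12.1% of all genes. Me1 was 4.83-fold, Nqo1 2.39-fold and Taldo1 2.04-fold higher in assay 1 than in assay 3. Assay 3 was also the assay with high stromal markers. Of the 31 further probe sets of the 28 genes that were tested, 27 had the same sign of mean difference as the one representing the gene, and for 17 of the 21 genes with several tested probe sets all had 1 sign.

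**Figure D4:**
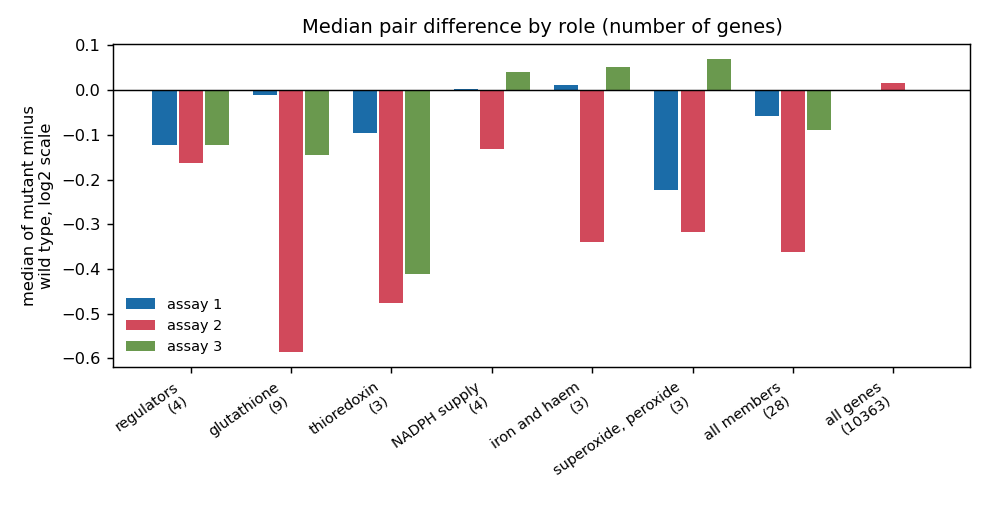
Median of mutant minus wild type on the log2(intensity + 16) scale within each assay, for the genes of each role, for all 28 genes and for all genes tested, with the number of genes in parentheses. The glutathione genes have medians of -0.01, -0.59 and -0.15, the thioredoxin genes of -0.10, -0.48 and -0.41, and all genes tested lie close to 0.

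By role, the median of assay 2 was the lowest of the 3 assays for each of the 7 roles, Nqo1 and Osgin1 included. Of all genes tested, 12.0% were lower in every assay, and the roles hold few genes each. For the glutathione genes, 6 of 9 were lower in every assay, with medians of -0.01, -0.59 and -0.15 in assays 1 to 3. For the thioredoxin genes, 3 of 3 were, with medians of -0.10, -0.48 and -0.41. For the regulators, 2 of 4 were, with medians of -0.12, -0.16 and -0.12. For the NADPH genes, 1 of 4 was, with medians of 0.00, -0.13 and 0.04. For the iron and haem genes 0 of 3 were, with medians of 0.01, -0.34 and 0.05.

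A wider list of 131 other genes of the same roles was examined in the same fit, of which 124 had a probe set and 112 were tested. By limma, 0 passed and 2 had an unadjusted p under 0.05, 68 were lower and 44 higher in mutant cells on the mean, and the median was -0.05. Of all 10363 genes tested, 97 lower and 21 higher ones had such a p. On the mean, 4852 of all genes were lower and 5511 higher. Of the 112, 24 were lower in every assay (12.0% of all genes) and 12 higher (14.5% of all genes), and 6 did not overlap, all lower in mutant cells (1.95% of all genes). Of its 29 glutathione genes, 7 were lower and 5 higher in every assay. Abcc5, a relative of Abcc1, read 239, 233 and 226 on mutant and 313, 298 and 283 on wild-type arrays, without overlap (-0.34 ± 0.09). Glrx, glutaredoxin, went the other way: it read 3567, 3337 and 1829 on mutant and 1985, 2154 and 1469 on wild-type arrays, higher by 0.84, 0.63 and 0.31. Gsta3, a glutathione transferase, rested on wild-type array 2, with 171, 74.9 and 151 on mutant and 266, 1431 and 99.97 on wild-type arrays.

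Among 20 other iron and haem genes, 3 were lower (12.0% of all genes) and 0 higher (14.5% of all genes) in every assay. Alas1, the first and rate-limiting enzyme of haem synthesis outside the erythroid line, stood out, with 1325, 945 and 1739 on mutant and 2469, 2077 and 4647 on wild-type arrays. Its groups did not overlap, and its differences were -0.89, -1.12 and -1.41, with a mean of -1.14 ± 0.38 (2.20-fold lower) and -1.15 in assays 1 and 3 alone. Pcbp1, an iron chaperone, differed by -0.17 ± 0.16, and Cd163, the haemoglobin scavenger receptor, by 0.18 ± 0.16.

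Of 10 other superoxide and peroxide genes, 6 were lower (12.0% of all genes) and 0 higher (14.5% of all genes) in every assay, and 4 did not overlap, all lower (1.95% of all genes). The 6 include differences of almost no size: Ccs, named after its values were seen, differed by -0.003, -0.13 and -0.001. Rac2, a GTPase of the phagocyte NADPH oxidase, read 1613, 1042 and 1471 on mutant and 1914, 1708 and 2031 on wild-type arrays, a difference of -0.47 ± 0.19. Ncf1, the oxidase subunit p47phox, read 7475, 6921 and 7738 on mutant and 8807, 7844 and 8019 on wild-type arrays. Aifm2, the ferroptosis suppressor FSP1, read 146, 141 and 137 on mutant and 185, 195 and 148 on wild-type arrays. All 3 were lower in mutant cells without overlap, with differences of -0.24, -0.70 and -0.46 for Rac2, -0.24, -0.18 and -0.05 for Ncf1, and -0.31, -0.42 and -0.10 for Aifm2. The membrane subunits Cybb and Cyba, named after their values were seen, differed by -0.12 ± 0.18 and -0.12 ± 0.14.

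Of all genes tested, 12.0% were lower and 14.5% higher in every assay, the shares to set beside the counts that follow. Of 13 other NADPH genes, 1 was lower and 3 were higher in every assay. H6pd, which supplies NADPH in the endoplasmic reticulum, was higher by 0.32, 0.36 and 0.26. Idh2, the mitochondrial isocitrate dehydrogenase, differed by 0.16 ± 0.20, and Mthfd2, a mitochondrial folate enzyme, by 0.70, -0.91 and -1.51 without a common direction. Of 15 other thioredoxin genes, 3 were lower and 1 was higher in every assay. Msrb1, a methionine sulfoxide reductase, was lower, with differences of -0.12, -0.80 and -0.09, Prdx2, a peroxiredoxin, differed by 0.01, -0.48 and -0.15, and Txnl1, a thioredoxin-like protein, by 0.25, 0.07 and -0.08. Of 11 other regulators, 2 were lower and 1 was higher in every assay: Btrc, an adaptor that directs NRF2 to degradation, differed by -0.27 ± 0.21, Nfe2l1, the related factor NRF1, by -0.33 ± 0.42, and Crebbp, a coactivator, by 0.16 ± 0.18. With the assay as a block, these standard errors were 0.08, 0.10 and 0.08. Of 14 other genes listed with Nqo1 and Osgin1, 2 were lower and 2 higher in every assay. Ptgr1, a prostaglandin reductase and NRF2 target, read 3739.9, 1897 and 1649 on mutant and 5291, 3614 and 2159 on wild-type arrays. Cyb5r1 and Tbxas1 were the 2 higher ones, by 0.21 ± 0.15 and 0.19 ± 0.15.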

How the data were processed

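The values deposited by the authors were intensities on a linear scale, 1 per probe set and array, for 6 arrays. GCOS and GCRMA are named, with no version, per the submitters' processing notes; the order of these steps is not stated there. GCRMA presses dim probe sets towards a floor. As the arrays already shared a 75th percentile of 160 to 164, they were used without another normalization. The number of arrays limits the precision.

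Groups and replicate numbers came from the sample titles. The array holds 45101 probe sets, 64 of them controls that were not tested. The 22497 above the median of their array on at least 3 of the 6 arrays entered the test. The platform annotation, which may be old, gave 1 symbol for 34945 probe sets, several for 932 and none for 9160. Differences in log2(intensity + 16) were fitted by limma's lmFit and eBayes (version 3.58.1 in R 4.3.3) without a block, two-sided, adjusted after Benjamini-Hochberg over all 22497, at 0.05. Standard errors are from this fit and hold the differences between assays. The fitting steps were tested on simulated data.

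The deviations of same-numbered arrays from their group means correlated at 0.797, 0.671 and 0.845, whereas mutant and wild-type arrays with different numbers gave -0.618 to -0.0138. Deviations cancel out within a group, so positive values for same-numbered arrays push the others down, and part of this contrast is built in. With the 3 independent assays of the labels, same-numbered arrays were treated as pairs, and values are given within pairs.

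The genes, the wider list, the marker lists and the tests were chosen with earlier results of these data known. All genes of the main list are accounted for, together with up to 3 genes per role of the wider list with the smallest unadjusted p and the brightest 2 genes of a marker list; any other is said to be named after its values were seen. Alternatives were other constants added before the logarithm, filters, scalings, probe set rules, blocks and left-out arrays. The differences over assays 1 and 3 alone and the count of differences over 0.3 were added after the data were seen.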

Additional observations from a re-analysis of the deposited data

Results flagged for a closer look

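Control probe sets, which no comparison above tests, were far higher on the mutant array of assay 2 than on any other array. For 18S ribosomal RNA the 3′ probe set read 4167 there, against at most 130 on the other mutant arrays and 123 on the wild-type arrays. The 5′ probe set read 623, against at most 93.5 on the other mutant and 61.6 on the wild-type arrays. The middle probe set read 704, against at most 92.1 and 85.7. This array takes part in the assay 2 differences of all 28 genes, and its part in them was not tested. Slc7a11, Gss, Srxn1 and Nqo1 were lower in mutant cells, with differences of -1.91, -0.91, -0.42 and -0.90 without assay 2, while Gclm and Gsr had -0.05 and -0.06 left.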

How the results depend on the processing

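With the replicate block, 0 probe sets and 0 genes of the list passed, as without it; with a random replicate block 1 probe set passed (adjusted p = 0.0499 by limma), of none of the 28 genes. All other settings called 0 probe sets by limma, with 66 to 1189 at an unadjusted p under 0.05. When all probe sets of a gene were averaged, the genes lower in every assay numbered 10, 1 gene was higher in every assay, and 2 differences changed sign, Tkt to 0.0109 and Me1 to -0.0104; 11 were lower in every assay after quantile normalization, and 11 of the 26 genes left by a filter at the 70th percentile. Leaving out arrays, the genes higher in every remaining pair numbered 1 to 5 and those lower 13 to 17; of all probe sets, 23.3 to 29.8% were then higher and 22.1 to 26.1% lower, against 13.8 and 11.7% with all arrays. The ranges of mean differences that changed sign were -0.29 to 0.21 for Blvrb, -0.26 to 0.25 for Cat, -0.0657 to 0.0324 for Fth1, -0.67 to 0.15 for Gclc, -0.23 to 0.0880 for Gpx4, -0.13 to 0.26 for Gstm1, -0.47 to 0.44 for Hmox1, -0.18 to 0.35 for Mafg, -0.44 to 0.65 for Me1, -0.33 to 0.31 for Osgin1, -0.19 to 0.0416 for Pgd, -0.13 to 0.0784 for Sod1, -0.41 to 0.0193 for Sod2, -0.41 to 0.15 for Taldo1, -0.17 to 0.0102 for Tkt and -0.60 to 0.000896 for Txnrd1. The cause was not tested. Slc7a11, Gss, Srxn1 and Nqo1 were lower in mutant cells under every setting in which they were tested, and the median over the 28 genes was -0.30 to -0.05 when arrays were left out.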
